A study of Mus musculus with 12 samples.

Results

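Long-term injury by carbon tetrachloride (CCl4), a solvent that is toxic to hepatocytes, was compared between livers with and without NSun2 by small RNA sequencing of fragments of transfer RNA (tsRNAs). The quantity described here is the interaction, that is the change from D0 to D27 in NSun2-/- (NS-KO) livers minus the same change in wild-type (WT) livers. It was taken on log2 CPM (read counts scaled to the tRNA reads of the library and then by TMM factors between libraries), so 1 unit is a doubling of one change relative to the other. CPM levels printed below, and statements on whether libraries overlap, are by library total alone, without these factors. It was computed for 281 sums of reads that share a fragment subtype and a set of isodecoders, of 801 such sums in the data, and for 22065 single read sequences of 87699. The comparison used 8 of 12 libraries, with 2 from each of NS-KO D27, NS-KO D0, WT D27 and WT D0, and the D3 libraries entered only the filters and the shared estimate of the spread. D27 mice had received 40% CCl4 repeatedly by intraperitoneal injection, diluted with corn oil and dosed at 2 ml per kg, and D0 mice the oil alone. All were male mice labelled as 8 to 12 weeks old, of the B6D2F1/Crl background, a cross of the C57BL/6 and DBA/2 strains. NS-KO mice carried a CRISPR/Cas9 deletion in exon 2 of NSun2, were bred from heterozygous parents and were compared with littermates. The data hold tRNA reads only, so neither NSun2 mRNA nor any marker of a liver cell type could be read from them.

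NSun2 is an enzyme that writes 5-methylcytosine into many tRNAs, where the mark protects the tRNA from cleavage. Mature tRNAs are cut at the D loop, the anticodon loop or the T loop, which leaves 5′ fragments (tRF-5a, tRF-5b and tRF-5c from the shortest to the longest, and tiRNA-5, cut at the anticodon), 3′ fragments with the CCA end (tRF-3a, tRF-3b and tiRNA-3) and the internal tRF-2. tRF-1s come from precursors instead. RNase Z cuts the trailer from the 3′ end of the pre-tRNA, and the free trailer ends in the run of T at which RNA polymerase III stops. Mitochondrial tRNAs lie between the mRNAs and rRNAs of 1 long transcript and are cut out of it by the same kind of enzyme. The subtypes are those of the deposited table, and reads that fitted no named subtype stand there as Other.

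The sequences on which the results turn are shown first, read 5′ to 3′ along the gene, as DNA letters. Coordinates are those of the files. Of 439 nuclear precursors in the files, 370 lie exactly on a gene of RefSeq GRCm38.p6, so that build was taken for them. The first pair are the most abundant trailers of a nuclear and of a mitochondrial tRNA, the initiator tRNA iMet-CAT-1-1 (chromosome 3, 90475860 to 90475931) and mt-Val-TAC (chromosome M, 1025 to 1093).
iMet-CAT-1-1 trailer: tcggaggctttgtttt
mt-Val-TAC trailer: actaatcctagccctagccct
The next are tRF-1s of the pair of sums with the smallest p of those that were higher, Gln-CTG-3-2 (chromosome 3, 96399059 to 96399130) and Thr-TGT-2-1 (chromosome 14, 51088650 to 51088722). The shorter Gln-CTG sequence is tRF-Gln-CTG-026, which the study followed by name.
Gln-CTG-3-2 tRF-1: ttggtgtcaggctagtttt
tRF-Gln-CTG-026: ttggtgtcaggctagttt
Thr-TGT-2-1 tRF-1: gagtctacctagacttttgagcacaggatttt
The 5′ end of Gly-GCC gives the most abundant fragments by mean CPM over the 8 libraries. The most abundant sequence by that mean, not printed, is the 31-nt form read with T as its last base. In NS-KO D0 it was at 23200 and 17640 CPM, below the mt-Val-TAC trailer above at 32080 and 42440 CPM. In NS-KO D27 it was at 26420 and 17040 CPM, below a 22-nt mt-Ser-GCT fragment at 28870 and 27160 CPM. The 31-nt form with T had 53452 and 26603 reads in WT D0, against 44268 and 22318 for the printed form that ends in C. Among 31-nt fragments with this start, 39.2% to 43.6% ended in C in the 8 libraries. The printed forms differ by a few bases at the 3′ end.
Gly-GCC 5′ end, 28 nt: gcattggtggttcagtggtagaattctc
Gly-GCC 5′ end, 30 nt: gcattggtggttcagtggtagaattctcgc
Gly-GCC 5′ end, 31 nt: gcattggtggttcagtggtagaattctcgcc
The last set are trailers whose reads came with either of 2 bases at 1 position, and a capital marks the base that differs from the reference. They come from Ala-CGC-2-1 (chromosome 2, 57182078 to 57182149), His-GTG-2-1 (chromosome 2, 122375494 to 122375565) and His-GTG-2-3 (chromosome 2, 122377968 to 122378039).
Ala-CGC-2-1 trailer, reference base: gcagccggaattctgtttt
Ala-CGC-2-1 trailer, G16A: gcagccggaattctAtttt
His-GTG-2-1 trailer, reference base: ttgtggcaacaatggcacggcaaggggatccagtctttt
His-GTG-2-1 trailer, C30T: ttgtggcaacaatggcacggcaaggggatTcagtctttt
His-GTG-2-3 trailer, T16C: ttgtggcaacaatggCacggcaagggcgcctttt
In G16A and the other tokens the reference base comes first, then the position counted from 1 at the first base of the trailer, then the base read. The Ala-CGC-2-1 reads shown start at the second base of the trailer and the His-GTG reads at the first.

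The NS-KO D27 libraries held 46973 and 57514 tRNA reads, the NS-KO D0 libraries 70818 and 46937, the WT D27 libraries 156602 and 275568, and the WT D0 libraries 266322 and 161485. The NS-KO libraries are thus all shallower than the WT libraries. 1 read is 21.3 CPM in NS-KO D27 replicate 1, and a sequence with 0 reads can lie as high as 63.9 CPM there and as high as 10.9 CPM in WT D27 replicate 2 (3 reads of the total, counting error only). Replicates are independent biological replicates per the study's methods. Of all reads, 43.7% are listed under several isodecoders and 49.5% carry a mismatch to the tRNA they were assigned to. Levels are shares of tRNA reads, so a class can fall because another rose, and fewer cells of a type cannot be told apart from less RNA per cell.

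No sum passed the test for a genotype difference in its change to D27. By limma with Benjamini-Hochberg adjustment, 0 of 281 sums (0%) passed an adjusted p of 0.05, the smallest adjusted p was 0.4222, and limma with voom weights called 0 as well. At an unadjusted p under 0.05 there were 22 sums (7.83%), of which 9 were higher (3.2%) and 13 lower (4.63%). Point estimates ran between -3.34 and 2.26 log2 units, with 132 above 0 and 149 below, and 69 sums were 1 unit or more from 0. Precision was low, since the median SE was 0.66 and the median 95% interval reached 1.45 units to either side. The interval lay wholly between -1 and 1 for 3 sums (1.07%). For the other sums a difference of 1 log2 unit was thus not excluded.

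The changes within each genotype were as sparse. In NS-KO livers 1 sum of 281 (0.356%) passed, and it was lower at D27. It was Other His-ATG, named for this call and outside the rule for named sums, with reads from the trailer of His-ATG-1-1, at 21.3 and 17.4 CPM in NS-KO D27 and 212 and 170 CPM in NS-KO D0 (log2 change -2.29, limma adjusted p = 0.01683). These are 1 and 1 reads against 15 and 8, and in WT livers the sum was at 44.7 and 21.8 CPM at D27 and 75.1 and 124 CPM at D0 (adjusted p = 0.1558). Its interaction was -0.92 ± 0.50 (SE, adjusted p = 0.629). This call was lost when any 1 of the NS-KO or WT D0 libraries was left out. Of the reads that cover trailer position 6, 2 of 2 in NS-KO D27 and 22 of 22 in NS-KO D0 carried C6G, as did 13 of 13 in WT D27 and 38 of 39 in WT D0. At an unadjusted p under 0.05 there were 35 sums (12.5%) in NS-KO livers and 30 (10.7%) in WT livers, where 0 of 281 (0%) passed by limma and 0 with voom weights.

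The order of single libraries on CPM was described beside the fit. The D27 and D0 libraries did not overlap for 129 sums (45.9%) in NS-KO and 83 (29.5%) in WT, and for 112 sums (39.9%) they overlapped in both genotypes. The genotypes moved in opposite directions without overlap in 11 sums (3.91%), of which 6 were higher in NS-KO and lower in WT and 5 lower in NS-KO and higher in WT. With TMM factors these counts were 124 (44.1%) in NS-KO, 130 (46.3%) in WT and 19 (6.76%) in opposite directions. On CPM, in 23 sums (8.19%) both genotypes were higher at D27, and in 9 (3.2%) both were lower.

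**Figure D1:**
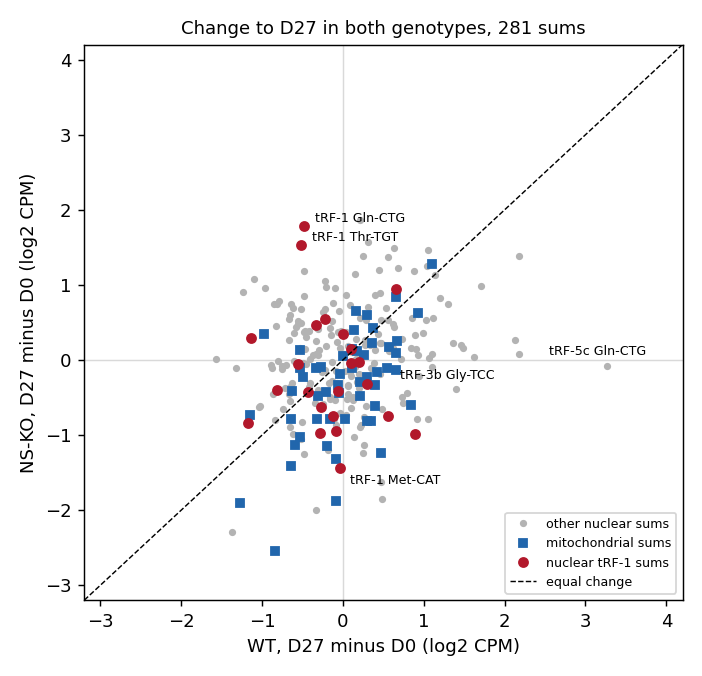
Change from D0 to D27 of 281 sums in WT livers (x axis, log2 CPM) and in NS-KO livers (y axis, log2 CPM), one point per sum, with the dashed line where both changes are equal. Mitochondrial sums (37 of 53) lie more often below the line than above it, as do 149 of all 281 sums. tRF-1 Met-CAT lies below the line at -1.39, while tRF-1 Gln-CTG and tRF-1 Thr-TGT lie above it at 2.26 and 2.05. No distance from the line passed the adjusted threshold.

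The share of tRF-1s was lower in both NS-KO D27 libraries than in both NS-KO D0 libraries, and the WT days overlapped. tRF-1 reads made 5.13% and 5.85% of tRNA reads in NS-KO D27 and 8.70% and 10.8% in NS-KO D0. They made 2.69% and 1.12% in WT D27 and 1.66% and 2.26% in WT D0. The means were 5.49% ± 0.51 in NS-KO D27, 9.72% ± 1.45 in NS-KO D0, 1.90% ± 1.11 in WT D27 and 1.96% ± 0.43 in WT D0 (SD, n = 2 each). The interaction was -4.18 percentage points (exact two-sided permutation of days within genotype, p = 0.2222, adjusted p = 0.4 over 6 measures). With 36 arrangements this test cannot give a p below 0.05556. As a share of all tRNA reads, the NS-KO level at D27 remained above both WT groups in every library. Among reads outside tRF-5c it did not, at 6.82% and 6.87% in NS-KO D27 against 6.86% and 3.68% in WT D27. There NS-KO D0 was at 10.3% and 12.3% and WT D0 at 5.83% and 6.34% (interaction -3.63 points, exact p = 0.2222). Relative to tRF-5c reads, which needs no scaling between libraries, the tRF-1 interaction was -1.19 log2 units (exact p = 0.3333).

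**Figure D2:**
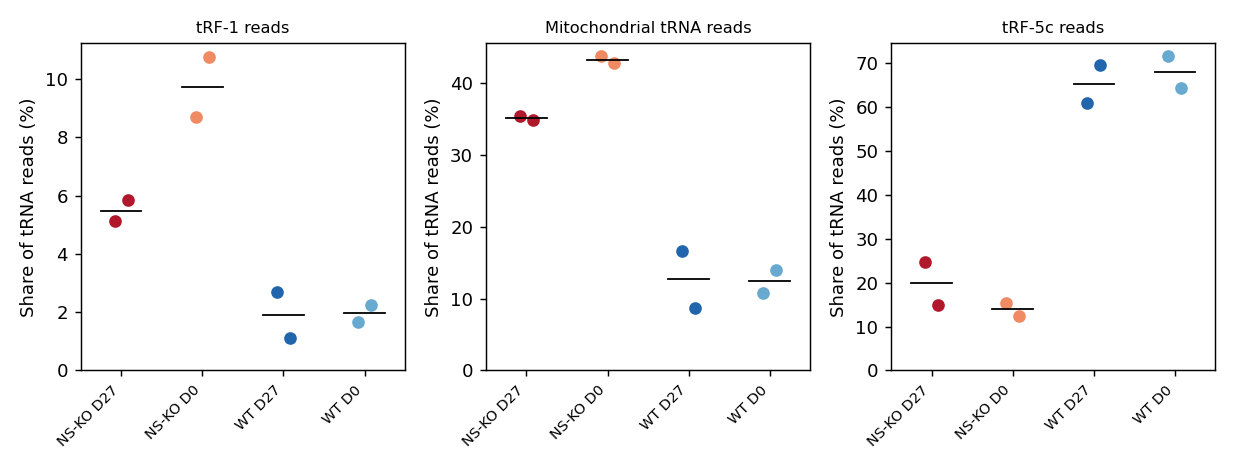
Share of tRNA reads (y axis, percent) of tRF-1s, mitochondrial tRNAs and tRF-5cs in the 4 groups, with one point per library and a line at the mean. Both NS-KO D27 points lie below both NS-KO D0 points for tRF-1s (5.13% and 5.85% against 8.70% and 10.8%) and for mitochondrial tRNAs (35.4% and 34.8% against 43.7% and 42.7%).

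Much of this share was 1 trailer, that of the initiator methionine tRNA, which starts translation. tRF-1 Met-CAT stood at 18500 and 25370 CPM in NS-KO D27 and 47810 and 62620 CPM in NS-KO D0, against 13670 and 6107 CPM in WT D27 and 8396 and 10460 CPM in WT D0. Both NS-KO D27 libraries were lower than both NS-KO D0 libraries, and the WT days overlapped. The interaction was -1.39 ± 0.46 (SE), with a 95% interval between -2.41 and -0.37, unadjusted p = 0.01211 and adjusted p = 0.4995. The log2 change was -1.43 in NS-KO and -0.04 in WT. The iMet trailer, counted over all subtypes and so not a part of this sum, made 1.93% and 2.65% of tRNA reads in NS-KO D27. It made 4.96% and 6.52% in NS-KO D0, 1.43% and 0.645% in WT D27 and 0.889% and 1.10% in WT D0. Its start was similar in all groups, while its mean length was slightly greater in every NS-KO library than in every WT library. Reads of 16 nt outnumbered those of 15 nt in all NS-KO libraries and in no WT library. Between 98.3% and 99.0% of its reads began at the first trailer base in each of the 8 libraries, and its mean length was 15.65 and 15.59 nt in NS-KO D27 and 15.57 and 15.57 nt in NS-KO D0, against 15.46 and 15.49 nt in WT D27 and 15.46 and 15.48 nt in WT D0. The single sequence printed above had 304 and 536 reads in NS-KO D27, 1213 and 1165 in NS-KO D0, 727 and 550 in WT D27 and 723 and 556 in WT D0 (interaction -1.49 ± 0.37, adjusted p = 0.4531).

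The makeup of the tRF-1 class also differed. Met-CAT took 36.1% and 43.4% of tRF-1 reads in NS-KO D27 and 55.0% and 58.3% in NS-KO D0, against 50.9% and 54.5% in WT D27 and 50.7% and 46.3% in WT D0. Arg-ACG took 18.2% and 20.7% in NS-KO D27 and 16.7% and 15.2% in NS-KO D0, against 19.7% and 18.8% in WT D27 and 19.98% and 21.5% in WT D0. Thr-CGT took 19.5% and 10.47% in NS-KO D27 and 10.3% and 9.62% in NS-KO D0, against 9.39% and 7.65% in WT D27 and 13.2% and 13.6% in WT D0. tRF-1 reads were 20.01 and 18.35 nt long on average in NS-KO D27 and 17.82 and 17.66 nt in NS-KO D0, against 18.15 and 17.96 nt in WT D27 and 18.43 and 18.76 nt in WT D0. These shares were looked at after the values of Met-CAT were known and were not tested.

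Other trailers ran in both directions. Of 26 tRF-1 sums tested, 14 had an interaction below 0 and 12 above, with a median of -0.18 beside -0.10 over all sums. The 9 isodecoders whose tRF-1s the study named had a median of -0.61 with 7 of 9 below 0, a set the study picked on these samples. tRF-1 Gly-TCC was at 256 and 104 CPM in NS-KO D27 and 424 and 256 CPM in NS-KO D0, against 25.5 and 25.4 CPM in WT D27 and 3.76 and 18.6 CPM in WT D0 (-1.87 ± 0.75, adjusted p = 0.4995), and with TMM factors its NS-KO days overlapped. In tRF-1 Cys-GCA the NS-KO days did not overlap, at 2725 and 3043 CPM at D27 and 3869 and 5348 CPM at D0, and the WT days did, with 1162 and 555 CPM at D27 and 736 and 1028 CPM at D0 (-0.63 ± 0.40, adjusted p = 0.6386). The tRF-1s of Ser-AGA (-0.86), Arg-CCT (-0.61), Ile-AAT (-0.35), His-GTG (-0.22) and Val-CAC (0.04) had adjusted p between 0.8122 and 0.9746, and each changed sign when 1 library was left out. tRF-1 Phe-GAA stood at 1.43 ± 0.84, but at 0.39 without WT D27 replicate 2 and 2.47 without WT D27 replicate 1. tRF-1 Asp-GTC stood at 0.30 ± 0.71, and at -0.44 without WT D27 replicate 2 and 1.04 without WT D27 replicate 1.

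The highest interaction of all sums, and the one with the smallest p, were also trailers, at very low counts. tRF-1 Gln-CTG was at 277 and 139 CPM in NS-KO D27 and 28.2 and 42.6 CPM in NS-KO D0, against 6.39 and 0 CPM in WT D27 and 3.76 and 12.4 CPM in WT D0. The reads behind these are 13 and 8 in NS-KO D27, 2 and 2 in NS-KO D0, 1 and 0 in WT D27 and 1 and 2 in WT D0. Its NS-KO days did not overlap and its WT days did (2.26 ± 0.62, adjusted p = 0.4222). The 19-nt form printed above made most of it, with 170 and 69.6 CPM in NS-KO D27 and 14.1 and 42.6 CPM in NS-KO D0. tRF-Gln-CTG-026, 1 base shorter, had 0 reads in all 8 libraries, which allows up to 63.9 and 52.2 CPM in NS-KO D27, 42.4 and 63.9 CPM in NS-KO D0, 19.2 and 10.9 CPM in WT D27 and 11.3 and 18.6 CPM in WT D0. tRF-1 Thr-TGT was at 63.9 and 86.9 CPM in NS-KO D27 and 14.1 and 0 CPM in NS-KO D0, against 12.8 and 3.63 CPM in WT D27 and 11.3 and 18.6 CPM in WT D0 (2.05 ± 0.54, adjusted p = 0.4222, 18 reads in all).

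**Figure D3:**
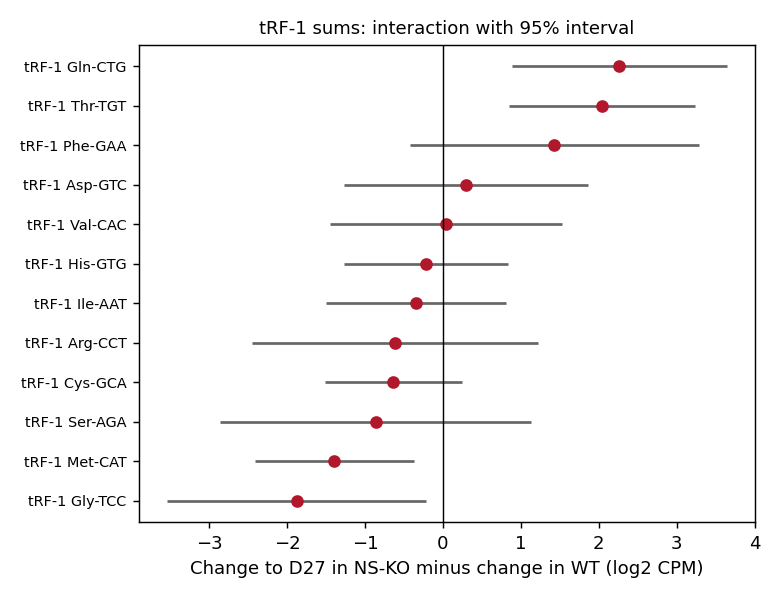
Interaction of 12 named tRF-1 sums (x axis, log2 CPM) with the 95% interval of the fit, sorted from the highest to the lowest. The intervals of Gln-CTG and Thr-TGT lie above 0 and those of Met-CAT and Gly-TCC below 0, and all 12 have an adjusted p of at least 0.4222.

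Several single sequences with the smallest p differed from the reference in 1 base. By limma 0 of 22065 fragments (0%) passed, with the smallest adjusted p at 0.06113 and 1459 (6.61%) at an unadjusted p under 0.05, of which 697 were higher (3.16%) and 762 lower (3.45%), and voom weights called 9. The change to D27 in NS-KO livers passed for 12 fragments (0.0544%), and that in WT livers for 0 of 22065 (0%), or 38 with voom weights and 1 with perfect matches. The NS-KO count depended on the setting. It was 0 with the replicate block, in the 8 libraries alone, with perfect matches and without any 1 of the WT D0 and D27 libraries, and 45 with voom weights, 78 by library size only, 121 where at least 2 libraries had to reach 20 CPM and 298 with a prior count of 0.5. Of these 12, 9 carried 1 of 5 base changes in the trailers of Ala-CGC-2-1, His-GTG-2-1, His-GTG-2-3, Ala-AGC-2-1 and Thr-AGT-1-2. The same holds for 7 of the 20 fragments with the smallest interaction p, and for 57 of all 22065 tested. In all, 10 positions in the data had at least 50 reads with another base at least 2 bases from a read end, 8 of them in trailers, and at 5 the other base was read 0 times in both libraries of 1 of the 4 groups. These 5 were picked for that pattern, and a base with 0 reads in 1 NS-KO group tends by itself toward a small p. The counts of fragments that carry them, and what follows, are thus a description with no test.

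In the trailer of Ala-CGC-2-1, G16A was seen in 0 of 274 and 0 of 376 reads in NS-KO D27 and in 140 of 345 and 117 of 268 in NS-KO D0. It was seen in 84 of 285 and 54 of 197 reads in WT D27 and in 66 of 218 and 55 of 225 in WT D0. The base was thus missing at D27 in NS-KO livers alone, with 0 of 650 reads, which allows a share of up to 0.462%, against 41.9% in NS-KO D0, 28.6% in WT D27 and 27.3% in WT D0.

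In the other 4 trailers the missing group was NS-KO D0. C30T of the His-GTG-2-1 trailer was in 64 of 137 and 60 of 125 reads in NS-KO D27 and in 0 of 156 and 0 of 198 in NS-KO D0, against 35 of 101 and 41 of 83 in WT D27 and 25 of 45 and 13 of 33 in WT D0. T16C of the His-GTG-2-3 trailer was in 41 of 63 and 37 of 58 reads in NS-KO D27 and in 0 of 29 and 0 of 28 in NS-KO D0, against 40 of 55 and 23 of 33 in WT D27 and 21 of 32 and 14 of 21 in WT D0. A20G of the Ala-AGC-2-1 trailer (chromosome 13) was in 34.8% of 141 reads in NS-KO D27 and 0 of 204 in NS-KO D0, against 29.8% of 94 reads in WT D27 and 32.8% of 116 in WT D0. A23T of the Thr-AGT-1-2 trailer (chromosome 11) was in 48.7% of 187 reads in NS-KO D27 and 0 of 177 in NS-KO D0, against 59.5% of 116 reads in WT D27 and 47.6% of 147 in WT D0. A count of 0 allows up to 0.847% for C30T, 5.26% for T16C, 1.47% for A20G and 1.69% for A23T. Both libraries of a group gave the same answer at each site, and all 4 WT libraries held both bases at all 5.

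The D3 libraries, which entered no comparison here, add a further pattern at the same sites. NS-KO D3 had G16A in 104 of 436 and 127 of 389 reads, C30T in 128 of 294 and 70 of 137, and T16C in 87 of 147 and 35 of 61. It had A20G in 0 of 399 and 1 of 162 reads, and A23T in 0 of 160 and 1 of 89. WT D3 held both bases at all 5 sites, with pooled shares between 24.5% and 62.6%. Whether these bases differ in the DNA of the mice was not tested. For fragments that carry these bases, a difference between the mice of the NS-KO groups and a response to CCl4 cannot be told apart. For the other fragments, sums and shares this was not tested, and there too the D0 and D27 libraries came from different mice.

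**Figure D4:**
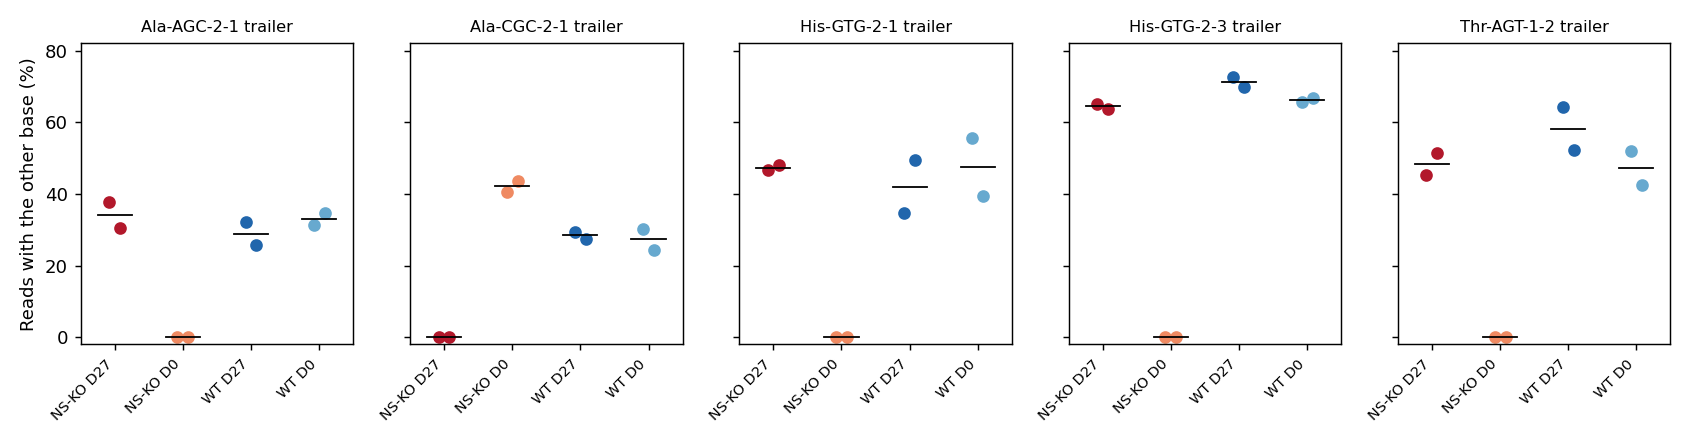
Share of reads (y axis, percent) that carry the base other than the reference at 1 position in each of 5 trailers, with one point per library and a line at the mean of each group. Both NS-KO D0 libraries are at 0 in 4 trailers and both NS-KO D27 libraries at 0 in the Ala-CGC-2-1 trailer, while each WT library lies above 20%.

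The sums by isodecoder that hold reads of these trailers, with reads of other genes of the same isodecoder, had the following values. tRF-1 Ala-CGC was at 1724 and 2000 CPM in NS-KO D27 and 1539 and 2088 CPM in NS-KO D0, against 632 and 236 CPM in WT D27 and 282 and 458 CPM in WT D0 (interaction -0.14 ± 0.41, adjusted p = 0.8846). tRF-1 His-GTG (-0.22 ± 0.47), Other His-GTG (-0.08 ± 0.52), Other Ala-CGC (0.00 ± 0.40), Other Ala-AGC (-0.41 ± 0.43) and Other Thr-AGT (0.62 ± 0.51) had adjusted p between 0.7934 and 0.9959. Among fragments, the Ala-CGC form with G16A printed above was at 0 and 0 CPM in NS-KO D27 and 410 and 426 CPM in NS-KO D0, against 38.3 and 25.4 CPM in WT D27 and 26.3 and 30.96 CPM in WT D0. Its reference form was at 1150 and 1200 CPM in NS-KO D27 and 607 and 618 CPM in NS-KO D0, against 217 and 83.5 CPM in WT D27 and 109 and 229 CPM in WT D0. For His-GTG-2-1, the C30T form was at 383 and 226 CPM in NS-KO D27 and 0 and 0 CPM in NS-KO D0, against 51.1 and 47.2 CPM in WT D27 and 15.02 and 24.8 CPM in WT D0. The reference form was at 256 and 348 CPM in NS-KO D27 and 424 and 980 CPM in NS-KO D0, against 102 and 36.3 CPM in WT D27 and 7.51 and 12.4 CPM in WT D0.

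Mitochondrial tRNA reads were ordered like the tRF-1s. They made 35.4% and 34.8% of reads in NS-KO D27 and 43.7% and 42.7% in NS-KO D0, which did not overlap, against 16.7% and 8.74% in WT D27 and 10.8% and 14.0% in WT D0, which did. The interaction was -8.41 percentage points (exact permutation, p = 0.1667, adjusted p = 0.4) and -0.80 log2 units relative to tRF-5c reads (exact p = 0.2778). As a share of all tRNA reads it was -4.45 points without WT D27 replicate 1. Among reads outside tRF-5c the interaction was -3.28 points (exact permutation, p = 0.6667). That share was 47.0% and 40.7% in NS-KO D27 and 51.5% and 48.6% in NS-KO D0. In WT it was 42.5% and 28.6% at D27 and 37.9% and 39.1% at D0. It was not recomputed with 1 library left out. Of 53 mitochondrial sums, 37 lay below 0 with a median of -0.40, beside 149 of 281 and -0.10 over all sums, and 0 passed.

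Among the 12 mitochondrial sources with the most reads, mt-Val-TAC had the share interaction farthest from 0 (-6.57 points), and nearly all its reads were trailer. By RefSeq, mt-Rnr2, the 16S rRNA gene, starts 0 bases after mt-Val-TAC, so reads of this trailer are the first bases of the 16S rRNA. They made 11.5% and 9.55% of tRNA reads in NS-KO D27 and 15.1% and 19.2% in NS-KO D0, against 7.58% and 3.29% in WT D27 and 5.04% and 6.18% in WT D0. At least 99.97% of them began at the first base in every library. The sum Other mt-Val-TAC had an interaction of -0.63 ± 0.54 (adjusted p = 0.7934). The other large mitochondrial source, mt-Ser-GCT, made 15.2% and 14.99% of reads in NS-KO D27 and 18.5% and 14.1% in NS-KO D0, against 4.82% and 2.94% in WT D27 and 3.34% and 4.47% in WT D0, with overlap in both genotypes. The reads listed under both mt-Asn-GTT and the neighbouring mt-Cys-GCA, picked after their values were seen, were 0.111% and 0.226% in NS-KO D27 and 1.02% and 0.763% in NS-KO D0, against 0.023% and 0.0374% in WT D27 and 0.0725% and 0.039% in WT D0, without overlap in either genotype. Their sum had an interaction of -1.71 ± 1.01 (adjusted p = 0.629).

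The 5′ fragments of the tRF-5c class, the largest in WT livers, spread widely. tRF-5cs made 24.8% and 14.9% of reads in NS-KO D27 and 15.4% and 12.51% in NS-KO D0, against 60.9% and 69.6% in WT D27 and 71.5% and 64.4% in WT D0, and the days overlapped in both genotypes. The interaction was 8.58 percentage points (exact permutation, p = 0.2778, adjusted p = 0.4), and 3.64 without NS-KO D27 replicate 1. The sum that dominates it is tRF-5c of Gly-CCC and Gly-GCC, at 123900 and 98970 CPM in NS-KO D27 and 84410 and 70180 CPM in NS-KO D0, against 383700 and 496400 CPM in WT D27 and 582100 and 508000 CPM in WT D0. On CPM the days did not overlap in either genotype and ran in opposite directions, while with TMM factors they overlapped in both. The interaction of 0.75 ± 1.10 had an adjusted p of 0.8454, and it was 0.17 without WT D27 replicate 1 and 1.33 without WT D27 replicate 2.

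The other tRF-5c sums mostly ran the other way. Of 25, 19 had an interaction below 0, beside 149 of 281 over all sums. The median was -0.66, beside -0.10 over all sums, so the list and the total share differ in sign. tRF-5c Gln-CTG had the lowest value of all sums. It and the other tRF-5c sums of this paragraph were named after their values were seen. It was at 128 and 191 CPM in NS-KO D27 and 84.7 and 277 CPM in NS-KO D0, against 594 and 142 CPM in WT D27 and 7.51 and 49.5 CPM in WT D0 (-3.34 ± 1.18, adjusted p = 0.4995). tRF-5c Glu-TTC averaged 4424 CPM in NS-KO D27 and 4016 CPM in NS-KO D0, against 7934 CPM in WT D27 and 2517 CPM in WT D0 (-1.58, unadjusted p = 0.02478). tRF-5c Glu-CTC, the next most abundant after Gly-GCC, had an interaction of -0.24 with an interval between -2.81 and 2.34. Of 32 sums of 5′ fragments of tRNAs known to be cut at the anticodon (Gly-GCC, Glu-CTC, Val-AAC, Val-CAC, Lys-CTT, His-GTG and Asp-GTC), 17 lay below 0 with a median of -0.19.

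Valine gave the most abundant tRF-5b and tRF-5a sums. tRF-5b Val-AAC/Val-CAC was at 3002 and 4121 CPM in NS-KO D27 and 2259 and 2450 CPM in NS-KO D0, against 581 and 392 CPM in WT D27 and 680 and 731 CPM in WT D0 (1.04 ± 0.63, adjusted p = 0.6386). The shortest form, tRF-5a Gly-ACC/Val-AAC/Val-CAC, was at 1213 and 1443 CPM in NS-KO D27 and 635 and 618 CPM in NS-KO D0, against 364 and 225 CPM in WT D27 and 267 and 353 CPM in WT D0 (1.05 ± 0.43, adjusted p = 0.4995). The longer tRF-5c Val-AAC/Val-CAC, outside the naming rule, stood at -0.36 ± 0.83. The opposite end of tRF-5a was Ala-TGC, at 0 and 17.4 CPM in NS-KO D27 and 70.6 and 128 CPM in NS-KO D0, against 12.8 and 29.03 CPM in WT D27 and 7.51 and 18.6 CPM in WT D0 (-2.34 ± 0.71, adjusted p = 0.4222, 27 reads in all).

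The shares of 28 to 30 nt and of 31 nt among 5′ Gly-GCC fragments separated the days in WT livers and overlapped in NS-KO livers. The lengths were looked at after the levels and were not tested. Fragments of 28 to 30 nt made 23.6% and 12.96% of the 5′ Gly-GCC reads in NS-KO D27 and 16.1% and 14.95% in NS-KO D0, against 42.7% and 25.1% in WT D27 and 11.2% and 13.03% in WT D0. Fragments of 31 nt, with any last base, made 53.9% and 45.5% in NS-KO D27 and 63.5% and 51.9% in NS-KO D0, against 50.1% and 55.3% in WT D27 and 81.7% and 77.8% in WT D0. Both WT D27 libraries thus had more short forms than both WT D0 libraries, and the NS-KO days overlapped. The longer forms of 34 to 40 nt were instead lower at D27 in NS-KO, at 1.997% and 3.67% in NS-KO D27 and 4.09% and 6.94% in NS-KO D0, against 0.408% and 1.38% in WT D27 and 0.540% and 0.670% in WT D0. The interaction of the 28 to 30 nt share was -19.03 percentage points, and -10.23 without WT D27 replicate 1 and -27.8 without WT D27 replicate 2.

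The 5′ fragments of Glu-CTC separated the WT days too. Its 28 to 30 nt share was 23.8% and 17.7% in NS-KO D27 and 17.4% and 16.8% in NS-KO D0, against 43.2% and 20.9% in WT D27 and 6.20% and 8.28% in WT D0, and the NS-KO days were close together without overlap. WT D27 replicate 1 was the highest library in both families. In 5′ Lys-CTT the wider gap between days was in NS-KO. Reads of 34 to 40 nt made 37.7% and 49.3% in NS-KO D27 and 79.9% and 81.8% in NS-KO D0, against 25.97% and 38.97% in WT D27 and 45.6% and 44.2% in WT D0. The days did not overlap in either genotype, and the longer forms were lower at D27 in both.

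**Figure D5:**
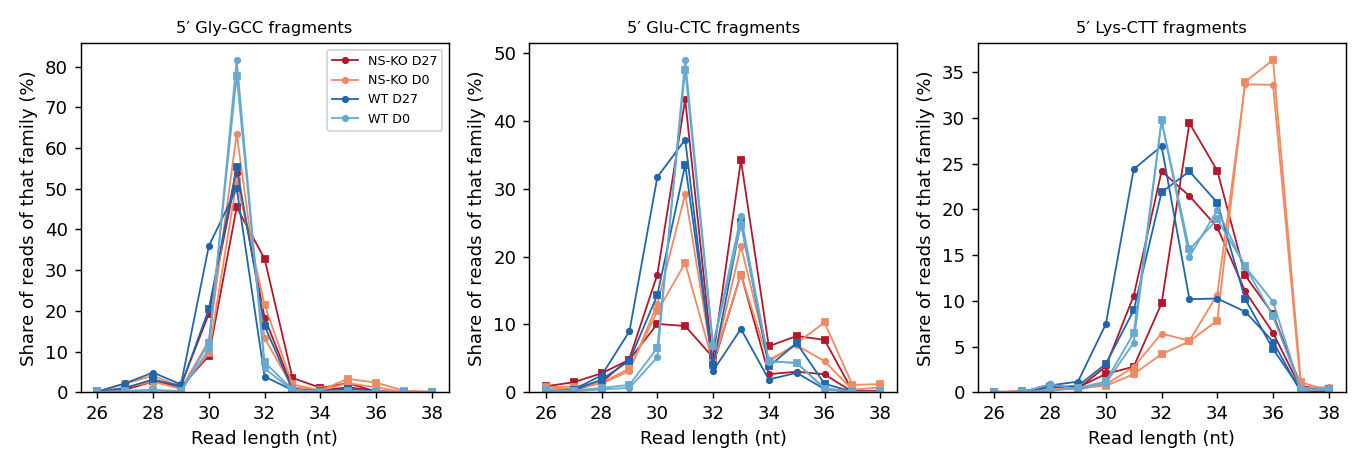
Length of 5′ fragments (x axis, nt) of Gly-GCC, Glu-CTC and Lys-CTT as a share of the reads of that family (y axis, percent), one line per library, with circles for replicate 1 and squares for replicate 2. At 31 nt, Gly-GCC is highest in both WT D0 libraries (81.7% and 77.8%). Lys-CTT is highest in both NS-KO D0 libraries at 35 nt (33.7% and 33.96%) and at 36 nt (33.6% and 36.4%), but not at 34 nt (10.7% and 7.85%).

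Most sums of the short 3′ fragments had interactions above 0. Of 36 tRF-3a sums, 25 had an interaction above 0, with a median of 0.41, beside 132 of 281 and -0.10 over all sums, and 0 passed. tRF-3a Tyr-GTA, from the 3′ end of the tyrosine tRNA, was at 8686 and 7024 CPM in NS-KO D27 and 5521 and 4666 CPM in NS-KO D0, against 3876 and 1789 CPM in WT D27 and 2692 and 5505 CPM in WT D0 (1.07 ± 0.42, adjusted p = 0.4995). tRF-3b Arg-ACG moved in opposite directions, with 511 and 574 CPM in NS-KO D27 and 282 and 234 CPM in NS-KO D0, against 83.01 and 29.03 CPM in WT D27 and 113 and 149 CPM in WT D0 (2.14 ± 0.85, adjusted p = 0.4995). tRF-3b Gly-TCC ran the other way, with 85.2 and 69.6 CPM in NS-KO D27 and 98.8 and 107 CPM in NS-KO D0, against 236 and 109 CPM in WT D27 and 52.6 and 55.7 CPM in WT D0 (-1.79 ± 0.53, adjusted p = 0.4222). tRF-3b Glu-TTC was higher at D27 in both genotypes, at 1213 and 1339 CPM in NS-KO D27 and 678 and 724 CPM in NS-KO D0, against 453 and 160 CPM in WT D27 and 75.1 and 142 CPM in WT D0 (-0.55 ± 0.50).

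The remaining named sums, of the subtypes Other, tiRNA and tRF-2, gave few contrasts. Other Phe-GAA was at 937 and 1408 CPM in NS-KO D27 and 565 and 874 CPM in NS-KO D0, against 287 and 109 CPM in WT D27 and 248 and 322 CPM in WT D0 (1.24 ± 0.49, adjusted p = 0.4995). Other Pro-CGG was at 170 and 296 CPM in NS-KO D27 and 325 and 447 CPM in NS-KO D0, against 128 and 97.98 CPM in WT D27 and 52.6 and 43.4 CPM in WT D0 (-1.84 ± 0.63, adjusted p = 0.4995). Other Cys-GCA/Val-AAC/Val-CAC, at -2.10 ± 0.64, rested on 14 reads. tiRNA-5 Glu-TTC stood at -1.22 ± 1.14, but at -0.36 without NS-KO D27 replicate 2 and -2.09 without NS-KO D27 replicate 1. The others were tiRNA-3 mt-His-GTG at 0.22 ± 0.36 and tRF-2 mt-His-GTG at 0.50 ± 1.05. Fragments of the tRNAs that DNMT2 methylates (Asp-GTC, Gly-GCC and Val-AAC) had a median of 0.20 over 32 sums, and those of Leu-CAA, whose anticodon NSun2 methylates, 0.41 with 6 of 8 above 0.

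The number of different fragments gave no detectable interaction. Sequences at a CPM of at least 20 numbered 10659 and 4482 in NS-KO D27 and 4259 and 9758 in NS-KO D0, against 2472 and 2070 in WT D27 and 1844 and 2127 in WT D0 (interaction 276.5, exact permutation, p = 0.8333). In the NS-KO libraries with 46973 and 46937 reads a single read exceeds that CPM, so all their sequences were counted. Thinned to 46937 reads, with at least 2 reads per sequence, the numbers were 3228 and 3781 in NS-KO D27 and 3059 and 3136 in NS-KO D0, against 2094 and 1653 in WT D27 and 1478 and 1777 in WT D0 (interaction 160.6, exact p = 0.7222).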

How the data were processed

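The authors trimmed reads with cutadapt, aligned them with Bowtie to mature tRNAs and then precursors with at most 1 mismatch, and deposited a table of read counts per sequence, as whole numbers, for 12 libraries of 14 to 40 nt RNA. Tool versions are not given in the sources used here. Before library making, deacylation, phosphate repair and removal of m1A and m3C had been applied. edgeR, which the study's methods name, was not run here, and limma was used in its place.

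Each distinct sequence was counted once, in sums by subtype and set of isodecoders. Sums entered with at least 10 reads if they also met the rule of filterByExpr, a minimum CPM in at least 2 libraries and a minimum total of reads. With 10 reads as the only filter 409 sums entered. Fragments entered where 1 or more libraries reached 20 CPM. limma 3.58.1 (R 4.3.3) with trend was fitted on log2 CPM with TMM factors (own code, 0.4757 to 1.786), a prior count of 2, 12 libraries, 1 mean per group and 6 residual degrees of freedom, with Benjamini-Hochberg adjustment over all features at a threshold of 0.05. Shares were tested by exact permutation. Scripts were tested on simulated data.

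Named sums are the 5 with the smallest p in each direction, the most abundant of each subtype and the tRF-1s of isodecoders named by the study. Fragments followed the same rule among those with at least 50 reads. Members and lists were chosen with earlier results of these data known. Alternatives were library size only, voom weights, another prior count, other filters, perfect matches, the 8 libraries alone, each library left out and a replicate block, and TMM from the tested features, which was chosen after seeing the data. Replicates differed beyond sampling noise (chi-square per degree of freedom 3.9 to 29.2).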

Additional observations from a re-analysis of the deposited data

Results flagged for a closer look

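In 6 of 27 named sums both NS-KO libraries moved one way between D0 and D27 and both WT libraries the other way, without overlap on CPM by library total. In all, 11 of 281 sums (3.91%), these 6 among them, did so. Some sums were named for a small interaction p, which by itself favours such movement, so the 2 counts are no test. With TMM factors, on which the interaction was fitted, the libraries of tRF-1 Gly-TCC overlapped in NS-KO and those of tRF-5c Gly-CCC/Gly-GCC in both genotypes. The other 4 sums still did not overlap. On that scale tRF-1 Thr-TGT and tRF-1 Phe-GAA, also named, moved in opposite directions without overlap, among 19 of 281 sums (6.76%). The list thus depends on the scale. The interactions were -1.79 for tRF-3b Gly-TCC, -1.84 for Other Pro-CGG, 2.14 for tRF-3b Arg-ACG, -1.87 for tRF-1 Gly-TCC, 1.04 for tRF-5b Val-AAC/Val-CAC and 0.75 for tRF-5c Gly-CCC/Gly-GCC. The difference was tested by the interaction term of limma, and the adjusted p lay between 0.4222 and 0.8454.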

How the results depend on the processing

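No sum passed for the interaction under any alternative. For fragments the count was 9 with voom weights and 0 to 3670 with 1 library left out. It was 2758 without NS-KO D0 replicate 1, 212 without NS-KO D27 replicate 1 and 3670 without NS-KO D27 replicate 2, and 2685, 185 and 3579 of these had at most 2 reads in the library that remained, whose spread is then assumed to be that of the other groups. For NS-KO D27 against D0 the count of sums was 4 by library size only, 0 with voom weights, 5 in the 8 libraries alone, 0 with perfect matches, and 0 to 1 with 1 library left out (0 without any 1 of the NS-KO or WT D0 libraries). For WT it was 3, 0, 6 and 1 in the same order, and 0 with 1 library left out. Shares of all tRNA reads kept their direction throughout. Shares among reads outside tRF-5c were not recomputed with 1 library left out. Without 1 library the tRF-1 interaction ran between -5.20 and -3.16, the mitochondrial one between -12.4 and -4.45 (-4.45 without WT D27 replicate 1) and the tRF-5c one between 3.64 and 13.5 (3.64 without NS-KO D27 replicate 1, 4.23 without WT D27 replicate 1). The number of fragments reversed, with a range between -2812 and 3365, at -2812 without NS-KO D27 replicate 1 and -2473 without NS-KO D0 replicate 1.

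The count of NS-KO fragments, 12, was 3285 without NS-KO D0 replicate 1, 145 without NS-KO D0 replicate 2, 509 without NS-KO D27 replicate 1 and 4462 without NS-KO D27 replicate 2, and that of WT fragments, 0, was 34 without NS-KO D0 replicate 1 and 51 without NS-KO D27 replicate 2. Of 27 named sums, 12 moved by over 1.5 times when 1 library was left out, among them tRF-2 mt-His-GTG (0.14 to 0.86), tRF-3b Glu-TTC (-0.90 to -0.20) and tiRNA-3 mt-His-GTG (0.0135 to 0.42).

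Among named results, 16 alternatives reversed a sign. With 1 library left out tRF-1 Arg-CCT ran between -1.50 and 0.28, Asp-GTC between -0.44 and 1.04, His-GTG between -0.47 and 0.0312, Ile-AAT between -0.79 and 0.0925, Ser-AGA between -1.95 and 0.23 and Val-CAC between -0.61 and 0.70. With perfect matches Val-CAC was -0.22 and tRF-2 mt-His-GTG -0.22. The most abundant tRF-2 fragment, of Leu-TAG, was 0.0964 by library size, 0.0914 with a prior count of 0.5 and -1.04 to 0.69 with 1 library left out. The cause was not tested. In 28 alternatives a named fragment passed that had not, mostly one with a base change; the iMet trailer sequence did so at -1.78 without NS-KO D27 replicate 2.

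With a replicate block 0 sums passed for the interaction and the tRF-1 share interaction was -4.18 (exact p = 0.375). Replicate numbers showed little pairing among the D0 and D27 groups, where deviations of the same number correlated above 0.1 in 1 of 6 pairs of groups (-0.1783 to 0.1184). With the D3 groups included the range was -0.3029 (WT D0 and WT D3) to 0.4968 (WT D3 and WT D27). The planned edgeR test was not run.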
